A study of Mus musculus with 16 samples.

Results

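The 56 mouse genes described here make the proteins that cut, protect and cross-link the extracellular matrix. They comprise 23 matrix metalloproteinases (Mmp), 4 tissue inhibitors of metalloproteinases (Timp), 19 Adamts proteases, 5 Adamts-like genes (Adamtsl) and 5 lysyl oxidases (Lox and Loxl1 to Loxl4). They were picked out by gene symbol among the 46078 Ensembl gene identifiers of a count table from brown and white fat. Each symbol of the set has 1 identifier in that table. The set itself was chosen with earlier results of these data known. 32 of the 56 averaged at least 5 CPM (read counts scaled to a common library size) in at least 1 of the 4 groups, and 24 stayed below that level in all of them.

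Matrix metalloproteinases are zinc-dependent enzymes, most of them secreted as inactive precursors and a few anchored in the cell membrane, that cleave collagens and other matrix proteins. The Timp proteins block their active sites, and Timp3 also blocks several Adam and Adamts enzymes. Among the Adamts proteases, a first group removes the amino-terminal propeptide of procollagens and a second cleaves the large proteoglycans aggrecan and versican, while the Adamts-like proteins have no protease domain and several of them bind fibrillin microfibrils. Lysyl oxidases oxidise lysines of collagen and elastin, the step that starts cross-linking. In fat, the matrix around adipocytes is remodelled as the cells grow and shrink, and the membrane protease Mmp14 is needed for normal white fat in mice.

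Poly(A)-selected RNA from brown fat (BAT) and inguinal white fat (WAT) was sequenced, from wild-type C57BL/6 females aged 16 weeks, in 4 libraries per group. In the groups BAT_5C and WAT_5C mice aged 10 to 12 weeks were housed at 18 °C for 2 weeks and, after that, 3 weeks at 5 °C, while the mice of BAT_30C and WAT_30C stayed at 30 °C. Mice of all 4 groups came from parents kept at 30 °C, grew up there until weaning and had no food for the last 2 to 3 h. No label ties a library to a mouse of its own, so p-values measure the spread between libraries, which may be technical.

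Depth ran from 54264023 to 71289020 counts per library. Ucp1, the thermogenic uncoupling protein of brown fat, reached 12384 to 13783 CPM in BAT_5C while BAT_30C held 633 to 2018.5 CPM. A tissue label places the brown fat in the inguinal region, but Hoxc10, a homeobox gene of the posterior body, had 0 counts in all 8 BAT libraries and 5.76 to 24.0 CPM in the WAT libraries. In 4 BAT libraries (BAT_5C replicates 1 and 2, BAT_30C replicates 3 and 4) the source name contradicts the temperature in the title and the housing entry. Titles and housing were followed, and Ucp1 read 13304 and 12384 CPM in the cold pair of these and 759 and 1893 CPM in the warm pair. WAT_5C replicate 1 went against the label female: it held 3 Xist counts and 17183 counts of 4 Y-linked genes, where the other 15 libraries held 11136 to 88934 and at most 45. Many results that rest on it are given with and without it, but not all. Values of WAT_5C include it unless the text says otherwise.

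**Figure D1:**
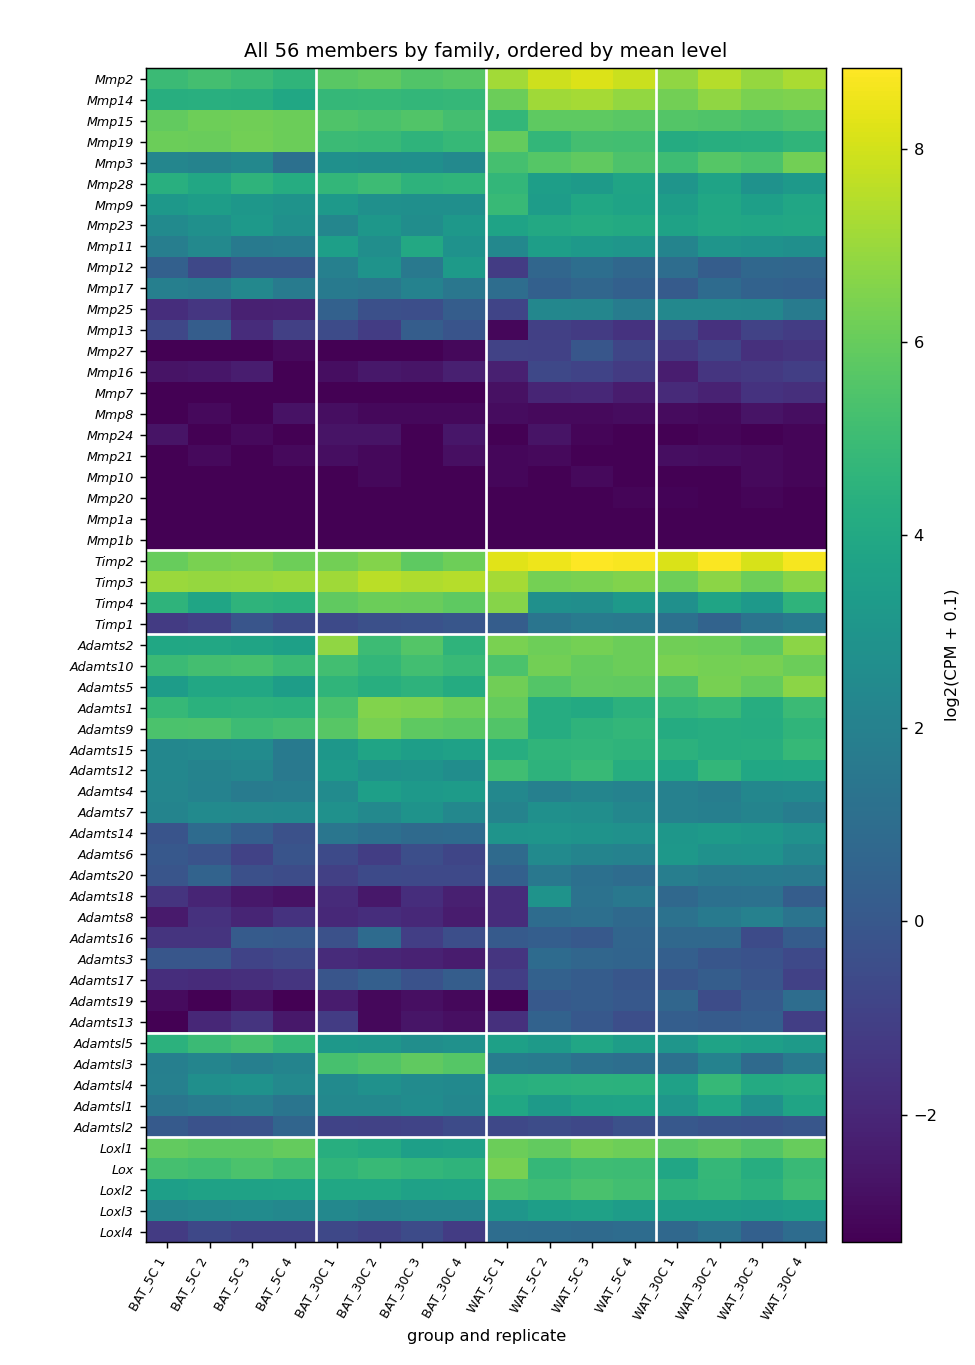
Level of each of the 56 members in each of the 16 libraries, as log2(CPM + 0.1), with members down the page by family and libraries across by group and replicate. The lowest rows of the Mmp block are near 0 CPM in every library, and WAT_5C replicate 1 differs from the other WAT_5C libraries in many rows.

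Per kilobase of exon, brown fat held less transcript than white fat of the same temperature in the Mmp, Timp and lysyl oxidase families, with no overlap between libraries. The Mmp transcripts summed to 59.8 ± 4.39 CPM per kb in BAT_5C and 56.7 ± 2.35 in BAT_30C, and to 153 ± 25.7 in WAT_5C and 116 ± 21.7 in WAT_30C (mean ± SD, n = 4). The mean sum over the 3 WAT_5C libraries without replicate 1 was 164 ± 17.2. The leading member differed between the brown groups: Mmp19, a secreted protease that cleaves basement membrane proteins, made up 33.2 ± 1.99% of the Mmp sum in BAT_5C, while Mmp2, the gelatinase that cleaves denatured collagen and collagen IV, led in BAT_30C with 27.2 ± 1.67%. In white fat Mmp2 led at both temperatures, with 43.1 ± 5.30% in WAT_5C and 36.5 ± 2.59% in WAT_30C.

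The inhibitors were led by Timp2 in white fat, where it held 82.9 ± 9.44% of the Timp sum in WAT_5C and 85.2 ± 1.42% in WAT_30C. Without WAT_5C replicate 1 the Timp2 share in WAT_5C was 87.55 ± 0.944%. In brown fat Timp2 and Timp3 were close, with Timp2 at 49.96 ± 4.81% and Timp3 at 39.5 ± 3.79% in BAT_5C, and Timp3 at 40.1 ± 3.41% and Timp2 at 37.5 ± 4.74% in BAT_30C. In BAT_30C these shares overlap within their SD. The Timp sum was 39.6 ± 2.60 CPM per kb in BAT_5C, 51.2 ± 6.37 in BAT_30C, 120.0 ± 10.8 in WAT_5C and 106 ± 24.6 in WAT_30C.

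The lysyl oxidase sum was 28.9 ± 1.15 CPM per kb in BAT_5C and 13.7 ± 1.63 in BAT_30C, and 39.9 ± 5.92 in WAT_5C and 29.6 ± 4.61 in WAT_30C. Without WAT_5C replicate 1 the sum in WAT_5C was 37.4 ± 4.19. Loxl1, which cross-links elastin, held 61.0 ± 2.91% of the lysyl oxidase sum in BAT_5C, and Lox held 40.04 ± 4.21% of it in BAT_30C. The Adamts sum was 17.2 ± 1.18 CPM per kb in BAT_5C and 35.01 ± 3.55 in BAT_30C, and 38.7 ± 3.89 in WAT_5C and 40.3 ± 4.68 in WAT_30C. The Adamts-like sums of the brown groups overlapped, at 8.55 ± 1.81 in BAT_5C and 9.73 ± 0.859 in BAT_30C, with different leading members: Adamtsl5 held 73.7 ± 1.49% in BAT_5C, whereas Adamtsl3 held 64.1 ± 5.43% in BAT_30C. In white fat Adamtsl4 led, with 56.3 ± 3.47% in WAT_5C and 55.3 ± 3.13% in WAT_30C.

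**Figure D2:**
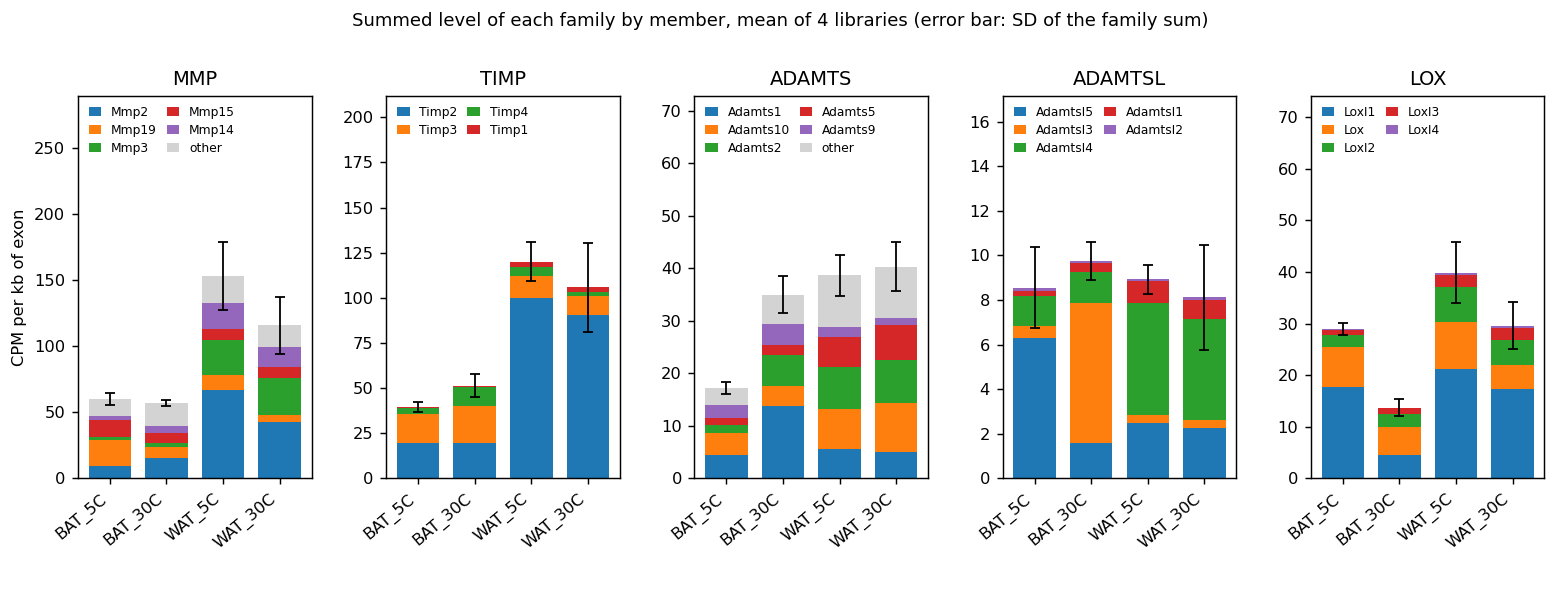
Summed level of each family in each group, in CPM per kb of exon, stacked by member (mean of 4 libraries, error bars: SD of the family sum). The LOX bar of BAT_5C is 28.9 against 13.7 in BAT_30C, and the ADAMTSL bars of the brown groups are of like height but led by Adamtsl5 at 5 °C and by Adamtsl3 at 30 °C.

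In brown fat, 6 of the 13 Mmp genes and 9 of the 15 Adamts genes that could be tested fell in the cold, as did the inhibitors Timp3 and Timp4, while Loxl1, Lox, Mmp19 and Mmp15 rose. Of the 56 genes 42 had enough counts to be tested. 8 rose, or 19.0% of those tested (29.2% of all 16213 genes tested in BAT rose), and 19 fell, or 45.2% (30.3% of all genes fell). The members' median log2 fold change was -0.40, against -0.05 over all genes. In 8 members every cold library was above every warm one and in 18 below it, against 27.6% of all genes each way. In a bulk tissue, fewer cells of a type and less RNA per cell cannot be told apart.

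2 metalloproteinases rose in cold brown fat. Mmp19 had 68.5, 66.4, 76.2 and 68.7 CPM in BAT_5C, against 31.1, 29.3, 24.2 and 28.4 CPM in BAT_30C (log2 fold change 1.31, SE 0.08, edgeR adjusted p = 1.07e-06). The groups are far apart, and every cold library is above every warm one. Mmp15, a membrane-anchored protease, had 60.1, 69.9, 74.4 and 68.1 CPM in BAT_5C and 44.95, 40.8, 45.9 and 36.8 CPM in BAT_30C (log2 fold change 0.70, SE 0.08, edgeR adjusted p = 7.62e-05). These did not overlap either. 22.3% of the exon bases of Mmp19 lie on exons of the antisense gene Tmem198b, whose own level was 13.7 CPM in BAT_5C and 12.1 CPM in BAT_30C (adjusted p = 0.169, edgeR).

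6 metalloproteinases fell. Mmp12, the elastase of macrophages, had 1.22, 0.525, 0.918 and 0.914 CPM in BAT_5C, against 3.85, 7.47, 2.91 and 9.91 CPM in BAT_30C (log2 fold change -2.76, SE 0.42, edgeR adjusted p = 0.000363). Every cold library lay below every warm one, and the warm libraries spread widely. None of the 9 macrophage markers passed the test in either direction, and their summed level was 246 to 343 CPM in BAT_5C and 276 to 346 CPM in BAT_30C. Mmp2 had 31.2, 37.0, 30.7 and 24.4 CPM in BAT_5C and 53.0, 57.6, 46.3 and 51.3 CPM in BAT_30C (log2 fold change -0.76, SE 0.11, edgeR adjusted p = 0.000321). Mmp14, the membrane protease that activates the Mmp2 precursor, had 19.4, 20.1, 19.3 and 14.97 CPM in BAT_5C and 27.6, 28.4, 26.6 and 27.5 CPM in BAT_30C (log2 fold change -0.58, SE 0.09, edgeR adjusted p = 0.000351). Transcripts of Mmp2 and of Mmp14 were each lower in every cold library than in any warm one, and protein was not measured here.

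Mmp11, a stromelysin, had 3.62, 5.23, 3.16 and 3.36 CPM in BAT_5C and 11.7, 6.32, 16.3 and 7.24 CPM in BAT_30C (log2 fold change -1.43, SE 0.30, edgeR adjusted p = 0.00262). 5.58% of its exon bases lie on antisense exons of Chchd10, a far more abundant gene that rose by 0.89 (log2). Mmp25, anchored in the membrane by a lipid, stayed under 1.3 CPM in each brown library and fell by 2.34 on the log2 scale (edgeR adjusted p = 0.000474). Mmp28 overlapped between the groups, with 20.6, 15.6, 23.6 and 18.2 CPM in BAT_5C and 26.3, 32.1, 22.9 and 24.4 CPM in BAT_30C (log2 fold change -0.44, SE 0.14, edgeR adjusted p = 0.0222). Its call was lost without BAT_5C replicate 2, without BAT_5C replicate 4 and without BAT_30C replicate 2 (edgeR adjusted p = 0.0533, 0.06 and 0.074), and in one fit of all 16 libraries (0.207). 12.0% of its exon bases overlap the gene 1700020L24Rik, which fell by 0.62 (log2). Mmp3, a stromelysin that also activates other Mmp precursors, did not pass the test, with 4.75, 4.29, 5.06 and 2.15 CPM in BAT_5C and 6.71, 6.32, 6.50 and 5.13 CPM in BAT_30C (log2 fold change -0.60, SE 0.24, edgeR adjusted p = 0.0513). Its groups do not overlap, and it was called without BAT_5C replicate 3 or 4 (edgeR adjusted p = 0.0437 and 0.0482). Mmp9, the second gelatinase, had 7.46 to 10.7 CPM in BAT_5C and 6.58 to 9.16 CPM in BAT_30C and was not called, and nor were Mmp13, Mmp17 and Mmp23.

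10 of the 23 metalloproteinase genes (Mmp3, Mmp12, Mmp13 and 7 others) lie side by side on chromosome 9. In these libraries Mmp3 and Mmp12 were the 2 genes of the cluster that reached 5 CPM in a group, and none of the other 8 passed 1.2 CPM in any library. Mmp1a and Mmp1b had 0 counts in all 16. Mmp7 had 0 counts in the 8 BAT libraries, where 3 counts per group would be the floor, and 37 counts over WAT_5C and 70 over WAT_30C. Mmp27 had 1 count in BAT_5C and 1 in BAT_30C, and 179 in WAT_5C and 114 in WAT_30C.

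The start regions of most cluster genes hold AP-1 letters, which none of the other members with a known window had. RefSeq windows (GRCm38.p6, 250 bases before to 50 after the start) were found for 37 of the 56 members, 10 of them in the cluster. The AP-1 letters TGANTCA, searched on both strands, stood in 8 of the 10 cluster genes and in 0 of the other 27 members, against 7.81% of all 32851 windows. TATAAA stood in 9 of the 10 and in 3 of the 27 (13.6% of all windows), and the GC box GGGCGG in 0 of the 10 and in 23 of the 27 (35.7% of all windows). No match overlapped another. The windows of Mmp12 (the one of its 2 with the AP-1 letters) and Mmp3, the 2 cluster genes with a level to measure, are shown with AP-1 and TATAAA in capitals, on the plus strand at chr9:7347124-7347423 and chr9:7445572-7445871.
Mmp12: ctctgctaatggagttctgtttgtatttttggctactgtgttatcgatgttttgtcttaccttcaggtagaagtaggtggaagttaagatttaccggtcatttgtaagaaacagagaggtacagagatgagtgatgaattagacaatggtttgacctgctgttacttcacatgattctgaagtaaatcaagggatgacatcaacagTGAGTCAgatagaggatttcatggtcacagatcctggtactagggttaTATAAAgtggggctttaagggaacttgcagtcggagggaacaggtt
Mmp3: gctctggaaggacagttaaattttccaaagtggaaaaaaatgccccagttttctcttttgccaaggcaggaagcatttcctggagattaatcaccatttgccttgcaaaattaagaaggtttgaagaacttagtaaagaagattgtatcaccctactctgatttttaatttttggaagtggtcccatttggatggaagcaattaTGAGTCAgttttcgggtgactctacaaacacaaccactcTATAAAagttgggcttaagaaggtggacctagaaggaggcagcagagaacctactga
The AP-1 letters begin at -44 from the start in Mmp12 and at -46 in Mmp3. A match of letters is a description of the window and does not show that a factor binds there.

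Of the 4 inhibitors 2 fell in cold brown fat. Timp4 had 23.6, 14.3, 24.1 and 21.9 CPM in BAT_5C, against 58.8, 69.0, 66.0 and 56.2 CPM in BAT_30C (log2 fold change -1.57, SE 0.16, edgeR adjusted p = 2.02e-05). The highest cold library was far below the lowest warm one. In one fit of all 16 libraries Timp4 and Timp3 did not pass (edgeR adjusted p = 0.0945 and 0.0984), nor did Timp3 in the 4 libraries with matching labels (-0.34, adjusted p = 0.171). Timp3 had 129, 122, 123 and 135 CPM in BAT_5C and 138, 188, 165 and 176 CPM in BAT_30C (log2 fold change -0.39, SE 0.09, edgeR adjusted p = 0.00509), a small step between groups that do not overlap. Exons of Syn3, itself under 1 CPM on average in both brown groups, overlap 21.3% of the Timp3 exon bases. Timp2, which together with Mmp14 takes part in activating Mmp2, had 65.0, 83.9, 89.9 and 70.7 CPM in BAT_5C and 75.5, 96.7, 57.0 and 72.2 CPM in BAT_30C and did not pass the test (edgeR adjusted p = 0.846). Timp1 stayed under 1 CPM in all 8 brown libraries and was not called.

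Of the Adamts proteases 15 were tested in brown fat, 2 rose and 9 fell. Among those that cleave proteoglycans, Adamts1 had 28.1, 21.9, 23.4 and 22.1 CPM in BAT_5C, against 41.0, 92.4, 87.1 and 70.2 CPM in BAT_30C (log2 fold change -1.60, SE 0.22, edgeR adjusted p = 0.000193). Adamts9 had 41.6, 42.7, 32.7 and 37.3 CPM in BAT_5C and 51.1, 82.2, 56.8 and 52.1 CPM in BAT_30C (log2 fold change -0.65, SE 0.16, edgeR adjusted p = 0.00528). Neither gene's groups overlapped. Adamts5, Adamts4 and Adamts15 of the same group also fell, by 0.70, 1.25 and 1.29 on the log2 scale (edgeR adjusted p = 0.00325, 0.000877 and 0.000387).

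The procollagen N-propeptidases moved apart. Adamts2 had 15.2, 15.8, 13.7 and 11.8 CPM in BAT_5C and 114, 32.6, 47.3 and 23.6 CPM in BAT_30C (log2 fold change -1.95, SE 0.43, edgeR adjusted p = 0.00341). The warm libraries spread over a wide range, and without BAT_30C replicate 1, the highest, the log2 fold change was -1.27 (edgeR adjusted p = 0.00093). Adamts14 fell by 0.90 on the log2 scale (edgeR adjusted p = 0.0283), with groups that overlap, and its call was lost without any single one of BAT_5C replicates 1, 3 and 4 and BAT_30C replicates 1 and 2 (adjusted p = 0.0593 to 0.0873). Adamts3, which also processes the lymphatic growth factor Vegfc, rose at a low level, with 0.848, 0.867, 0.448 and 0.519 CPM in BAT_5C and 0.184, 0.148, 0.121 and 0.0869 CPM in BAT_30C (log2 fold change 2.28, SE 0.36, edgeR adjusted p = 0.000455). In the 4 brown libraries with matching labels Adamts3 did not pass (adjusted p = 0.0555).

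Adamts12, which cleaves the cartilage protein Comp, and Adamts17 fell by 0.87 and 2.13 on the log2 scale (edgeR adjusted p = 0.00304 and 0.00013). Adamts20 rose by 0.78 at under 1.4 CPM (edgeR adjusted p = 0.0492). That call was lost in most other settings, among them leaving out BAT_5C replicate 1 or 2 or any BAT_30C library (adjusted p = 0.0726 to 0.158). Adamts10, the most abundant fibrillin-linked Adamts protease here, had 31.0 to 39.7 CPM in BAT_5C and 26.8 to 35.8 CPM in BAT_30C and was not called. Adamts6, Adamts7 and Adamts16 were not called, and Adamts8, Adamts13, Adamts18 and Adamts19 had too few counts for the test in brown fat.

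The Adamts-like genes held the steepest fall of the 42 genes tested in brown fat. Adamtsl3 (ENSMUSG00000070469), a secreted glycoprotein of the matrix, had 3.68, 4.47, 3.72 and 4.32 CPM in BAT_5C, against 39.9, 46.1, 59.2 and 48.8 CPM in BAT_30C (log2 fold change -3.58, SE 0.13, edgeR adjusted p = 7.32e-08). Adamtsl5 (ENSMUSG00000043822), which binds fibrillin-1, went the other way, with 22.2, 31.4, 38.3 and 27.3 CPM in BAT_5C and 8.87, 8.30, 6.31 and 6.89 CPM in BAT_30C (log2 fold change 1.97, SE 0.17, edgeR adjusted p = 8.05e-06). In both genes the groups lie apart, though the BAT_5C libraries of Adamtsl5 spread from 22.2 to 38.3 CPM. Adamtsl1 fell by 0.79 and Adamtsl2, a partner of fibrillin and of latent Tgfb complexes, rose by 1.04 (log2 fold change, SE 0.29, edgeR adjusted p = 0.0125) at 0.730 to 1.46 CPM in BAT_5C and 0.425 to 0.587 CPM in BAT_30C. The Adamtsl2 call was lost with library totals (0.65, adjusted p = 0.0637), and in the 4 brown libraries with matching labels neither Adamtsl2 nor Adamtsl1 passed (adjusted p = 0.0817 and 0.0894). Adamtsl4, at 3.82 to 7.21 CPM in BAT_5C and 5.28 to 7.04 CPM in BAT_30C, was not called.

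The start windows of this oppositely moving pair are shown with GC boxes (GGGCGG, or CCGCCC on the other strand) in capitals, for Adamtsl3 on the plus strand at chr7:82335444-82335743 and for Adamtsl5 on the minus strand at chr10:80348399-80348698 (RefSeq, GRCm38.p6).
Adamtsl3: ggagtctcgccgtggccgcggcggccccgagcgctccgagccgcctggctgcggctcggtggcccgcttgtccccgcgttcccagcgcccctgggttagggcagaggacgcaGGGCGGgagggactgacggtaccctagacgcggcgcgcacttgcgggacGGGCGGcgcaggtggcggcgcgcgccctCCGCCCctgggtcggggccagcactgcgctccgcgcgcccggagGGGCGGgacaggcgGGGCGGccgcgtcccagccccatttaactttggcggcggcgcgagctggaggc
Adamtsl5: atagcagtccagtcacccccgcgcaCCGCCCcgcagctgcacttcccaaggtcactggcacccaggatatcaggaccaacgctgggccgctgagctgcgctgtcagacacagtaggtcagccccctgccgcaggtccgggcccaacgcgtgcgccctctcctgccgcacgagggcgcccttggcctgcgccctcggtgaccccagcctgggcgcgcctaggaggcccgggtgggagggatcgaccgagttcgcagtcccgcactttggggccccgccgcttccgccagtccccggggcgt
Neither window holds the AP-1 letters, the cAMP response letters TGACGTCA or TATAAA.

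Both lysyl oxidases that passed the test in brown fat rose. Loxl1 had 61.2, 53.8, 55.0 and 62.7 CPM in BAT_5C, against 19.4, 17.2, 11.4 and 12.2 CPM in BAT_30C (log2 fold change 1.95, SE 0.17, edgeR adjusted p = 7.69e-06). Lox had 37.6, 34.8, 41.6 and 33.9 CPM in BAT_5C and 24.7, 28.9, 26.1 and 24.2 CPM in BAT_30C (log2 fold change 0.51, SE 0.08, edgeR adjusted p = 0.000448). The cold libraries lay above all warm ones for both genes, though for Lox the step is small and with library totals in place of TMM scaling it was 0.13 (adjusted p = 0.174). In one fit of all 16 libraries Lox did not pass either (edgeR adjusted p = 0.176). Loxl2, which acts on collagen IV of basement membranes, had 11.48 to 13.1 CPM in BAT_5C and 12.2 to 15.2 CPM in BAT_30C and was not called, nor were Loxl3 and Loxl4.

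**Figure D3:**
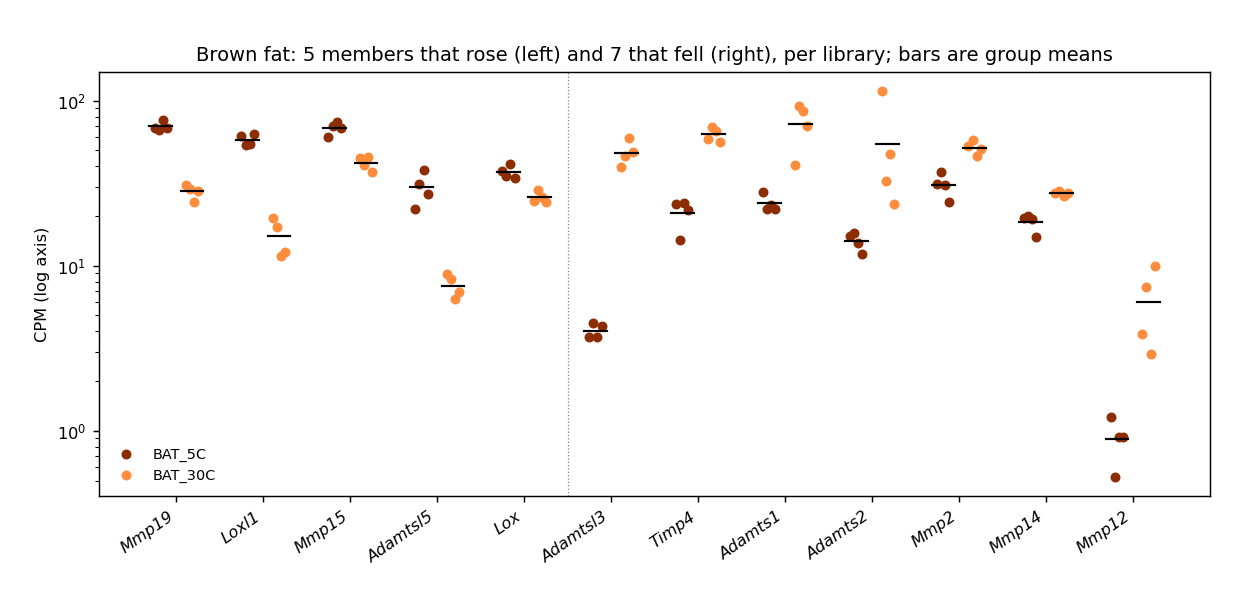
CPM on a log axis in each brown fat library for 5 members that rose and 7 that fell in cold, with bars at group means. The 4 BAT_5C points of Adamtsl3 lie between 3.68 and 4.47, against 39.9 to 59.2 in BAT_30C, and those of Loxl1 between 53.8 and 62.7, against 11.4 to 19.4.

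With library totals in place of TMM scaling, the median of all genes moved by -0.38 (log2) and the members' calls were 5 up and 23 down. That shift moves genes in general toward a fall, and the share of all genes called with this scaling is not given here. Adamtsl3, Mmp12, Timp4, Loxl1, Adamtsl5, Mmp19 and Mmp15 passed in the same direction with either scaling. In the 4 brown libraries whose labels all match, 5 members rose and 16 fell, again without the share over all genes. Of 9 fibroblast and progenitor markers 1 rose and 3 fell, and their summed level was 439 to 607 CPM in BAT_5C and 607 to 700.1 CPM in BAT_30C. The part of these cells in the members' changes was not tested. All 7 T and NK cell markers fell, with a summed level of 1.46 to 3.46 CPM in BAT_5C and 7.21 to 10.0 CPM in BAT_30C, and 3 of 4 tested white adipocyte markers fell, with a list sum of 56.95 to 148 CPM in BAT_5C and 772 to 1161 CPM in BAT_30C. Their part too was not tested.

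Genes that work beside the members were taken from 8 lists of matrix biology, and their counts stand against 29.2% of all genes called up and 30.3% called down in brown fat. Several lists are near those shares. In the plasminogen system 1 of 9 tested genes rose and 6 fell, with Plat, tissue plasminogen activator, at 0.45 and Plaur, the urokinase receptor, at -1.66 (log2 fold change). Among cathepsins and cystatins 4 of 10 rose and 3 fell, with the lysosomal proteases Ctsz at 2.54, Ctsd at 1.63 and Ctsb at 0.95 and the inhibitor Cst3 at -0.57. In the list of procollagen-processing and convertase genes 2 of 7 rose, Furin (1.37) and Pcsk6 (1.34), which cut many precursor proteins, and 3 fell, Pcsk5 (-1.83) and the procollagen protease Tll1 (-3.08) among them. Among membrane Adam proteases 4 of 10 rose, with Adam12 at 1.27 and Adam17, the shedding enzyme that Timp3 blocks, at 0.60, and 1 fell, Adam8 (-1.30).

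Of 16 collagen hydroxylases and transglutaminases 4 rose and 5 fell, with the prolyl hydroxylase subunits P4ha1 at 1.81 and P4ha2 at 0.98 among the rises, and P3h4 at -1.91 and the collagen chaperone Fkbp10 at -0.84 among the falls. Of 16 elastic fibre and microfibril genes 5 rose and 3 fell, with Mfap4, a microfibril-associated protein, at 2.95, Ltbp4 at 0.81 and Efemp1 at -1.57. Of 14 proteoglycan and hyaluronan genes 3 rose and 7 fell, with the aggrecan-family proteoglycan Ncan at 7.23 and the small proteoglycan Dcn at -0.77. Of 17 genes of Tgfb signalling 3 rose and 8 fell, with Thbs1, which activates latent Tgfb, at -2.62. The list medians ran from -0.49 (plasminogen) to 0.26 (elastic fibre), against -0.05 over all genes.

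In inguinal white fat no member passed the test. With all 8 WAT libraries 49 members were tested, 0 were called in either direction (0.0632% of all 18975 genes were called up and 0.0% down), and 9 had an unadjusted p under 0.05 (edgeR). Without WAT_5C replicate 1 again 0 of 49 were called (1.84% of 19320 genes up, 0.274% down), and 14 had an unadjusted p under 0.05. Other tools called some: DESeq2 called 2 up and 0 down with the library (4.44% and 1.45% of all genes) and 8 up and 2 down without it (7.42% and 5.04%). Limma-voom with quality weights called 3 up and 2 down with it (7.34% and 4.62%) and 6 up and 1 down without it (6.47% and 3.73%). Without the library, both tools called Mmp2, Mmp14, Mmp15, Mmp19 and Loxl2 up and Adamts6 down, and DESeq2 also called Adamts7 up (adjusted p = 0.00402). Their adjusted p-values for Mmp2 were 0.000533 (DESeq2) and 0.0238 (limma-voom), and for Mmp14 0.0134 and 0.0486. Mmp19 and Loxl2 passed by both tools with the library too. The WAT genes given with a fold change here were picked after their values were seen, for a level of at least 5 CPM and an unadjusted p under 0.05 with or without WAT_5C replicate 1, or because that library stood apart.

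Without WAT_5C replicate 1, every cold library was above every warm one in 10 members and below it in 3 (11.9% and 7.05% of all genes), and the 10 include 6 metalloproteinases. Mmp2 had 143, 237, 289.5 and 232 CPM in WAT_5C replicates 1 to 4, against 113, 179, 121 and 157 CPM in WAT_30C. Its log2 fold change was 0.63 (SE 0.24, edgeR adjusted p = 0.243) with all libraries and 0.79 (SE 0.18, edgeR adjusted p = 0.064) without replicate 1. Replicate 1 lay within the WAT_30C range and the other 3 cold libraries above it. Mmp14 had 68.1, 137, 148 and 117 CPM in WAT_5C and 75.3, 113, 83.0 and 90.4 CPM in WAT_30C. Without replicate 1, which was the lowest of all 8 white libraries, its log2 fold change was 0.53 (SE 0.15, edgeR adjusted p = 0.0985).

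Mmp19 was higher in each WAT_5C library than in any WAT_30C library, with 61.4, 26.3, 36.4 and 35.8 CPM in WAT_5C and 17.7, 19.5, 20.5 and 25.0 CPM in WAT_30C. Its log2 fold change was 0.92 (SE 0.25, edgeR adjusted p = 0.177) with replicate 1, the highest library, and 0.63 (SE 0.15, edgeR adjusted p = 0.0678) without it. Without both WAT_5C replicates 1 and 2 it passed (0.76, edgeR adjusted p = 0.0255). Mmp15 had 26.4, 55.6, 56.5 and 53.2 CPM in WAT_5C and 47.2, 44.4, 39.9 and 44.1 CPM in WAT_30C, where replicate 1 is the lowest of the 8 and the other 3 cold libraries are the highest. Its log2 fold change was 0.29 (SE 0.07, edgeR adjusted p = 0.0772) without replicate 1. Mmp11 had a log2 fold change of 0.49 (SE 0.21, edgeR adjusted p = 0.211) without it, and its antisense partner Chchd10 rose by 1.74 there (edgeR adjusted p = 0.0275). Mmp23 was the sixth of these genes.

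Among the other families, Loxl2 had 39.6, 33.0, 40.8 and 35.9 CPM in WAT_5C, against 23.5, 26.8, 22.5 and 32.8 CPM in WAT_30C. Each cold library, replicate 1 included, was above each warm one, though the gap was narrow, and the log2 fold change was 0.47 (SE 0.13, edgeR adjusted p = 0.186) with replicate 1 and 0.43 (SE 0.14, edgeR adjusted p = 0.12) without it. 44.996% of the 50-base windows of Loxl2 also occur in the copy Gm21451, which the counting could have split. Adamts7, a protease of the Comp-cleaving pair with Adamts12, had 4.24, 6.67, 6.42 and 4.92 CPM in WAT_5C and 3.97, 3.73, 4.40 and 3.46 CPM in WAT_30C, with a log2 fold change of 0.59 (SE 0.15, edgeR adjusted p = 0.078) without replicate 1. Adamts6 had 1.74, 5.56, 4.33 and 4.06 CPM in WAT_5C and 8.82, 6.995, 7.34 and 4.83 CPM in WAT_30C (-0.62 without replicate 1, edgeR adjusted p = 0.143), where the groups overlap. Timp2, by far the most abundant inhibitor of white fat, had 312, 363, 457 and 420.3 CPM in WAT_5C and 285, 441, 276 and 405 CPM in WAT_30C and overlapped between the groups.

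The sign of the change in white fat turned on WAT_5C replicate 1 for Timp4 and Adamts1, and not for these alone. Mmp12 had a log2 fold change of -0.20 with replicate 1 and 0.11 without it (edgeR adjusted p = 0.825 and 0.797). Of the 32 members with at least 5 CPM in a group, this library was above the other 7 white libraries in 10, below them in 7 and inside their range in 15. The shares over all genes are not given here, so these counts do not set the members apart from other genes. Timp4 had 100.4 CPM there, against 6.41 to 9.33 CPM in the other WAT_5C libraries and 6.85, 13.7, 9.22 and 23.9 CPM in WAT_30C, and its log2 fold change was 1.17 with the library and -0.87 without it (edgeR adjusted p = 0.5 and 0.234). Lox had 80.4, 27.0, 33.3 and 32.2 CPM in WAT_5C and 14.6, 27.1, 18.9 and 30.5 CPM in WAT_30C, with log2 fold changes of 0.90 and 0.40 with and without it (edgeR adjusted p = 0.275 and 0.342). Adamts1 had 62.4, 18.4, 16.6 and 22.3 CPM in WAT_5C and 25.5, 28.7, 19.1 and 31.5 CPM in WAT_30C, with 0.16 and -0.49 (and -0.23 with all 8 libraries scaled by library totals; edgeR adjusted p = 0.848 and 0.155).

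Markers of other cells also stood apart in that library. Its 11 mammary epithelial markers summed to 9.70 CPM, against 612 to 970.1 CPM in the other 7 white libraries, and its 5 mesothelial markers to 7.39 CPM, against 217 to 475 CPM. Its 6 adipocyte markers summed to 31861 CPM, against 8195 to 13768 CPM. T and NK cell markers summed to 87.3 CPM in it (322 to 583 in the other 7), macrophage markers to 920.0 CPM (1115 to 1976) and endothelial markers to 859 CPM (466 to 626). Skeletal muscle markers reached 5652 CPM in it, 19.9 to 212 CPM in the other WAT_5C libraries and 108 to 8048 CPM in WAT_30C. The part of these cells in the members' values was not tested.

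**Figure D4:**
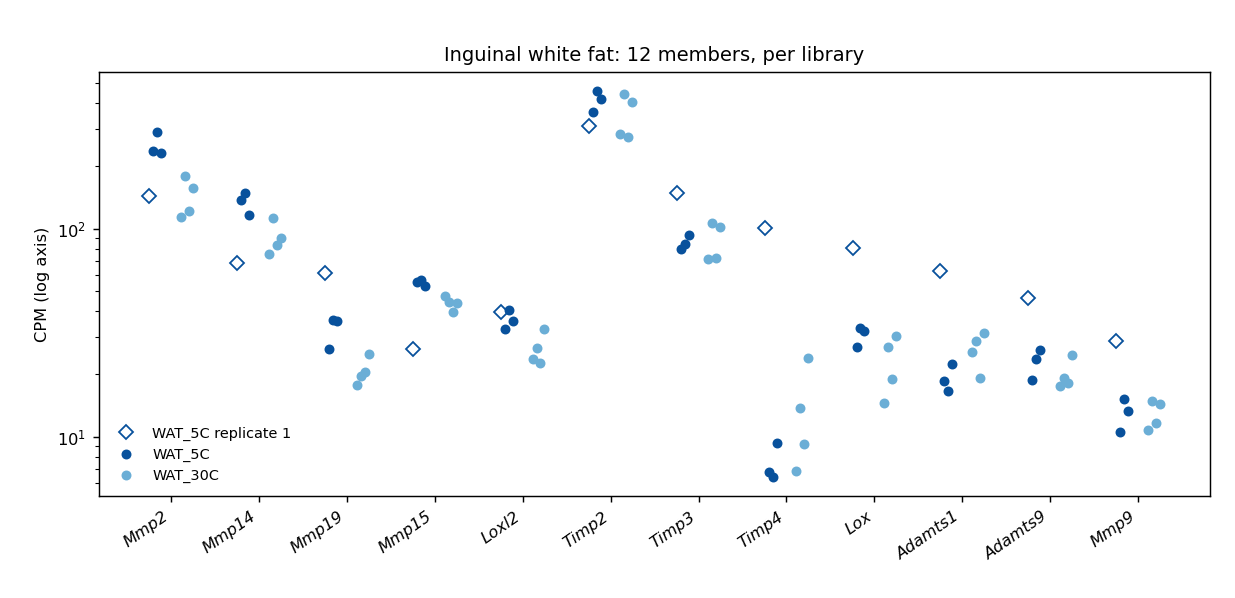
CPM on a log axis in each white fat library for 12 members, with WAT_5C replicate 1 as an open diamond. The diamond lies above all other points for Timp4 (100.4), Lox (80.4) and Adamts1 (62.4), and below them for Mmp15 (26.4) and Mmp14 (68.1).

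The 8 context lists gave 0 calls in white fat with all libraries. Without WAT_5C replicate 1 there were 3 calls, all up: the membrane protease Adam12 at 0.80, the microfibril gene Fbn2 at 1.16 and Ncan at 3.56 (log2 fold change, edgeR adjusted p = 0.0156, 0.0222 and 0.0158). Adam12 and Ncan also rose in cold brown fat.

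The difference between the cold effects, white minus brown, was tested in a fit of all 16 libraries. 15 of 49 members were called up, that is, with a more positive change in white fat (30.6%, against 12.5% of all 19481 genes), and 4 were called down (8.16%, against 8.34%). Without WAT_5C replicate 1 the counts were 16 up and 8 down (15.6% and 15.7% of all genes). All 19 members of the first fit were called in the second with the same sign, and the added ones were Adamts3, Adamts6, Mmp15, Mmp19 and Mmp25. The members' median difference was 0.52, against 0.12 over all genes.

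Mmp2 and Mmp14 differed between the depots. The difference in cold effect was 1.42 (SE 0.28, edgeR adjusted p = 0.00222) for Mmp2 and 0.96 (SE 0.27, edgeR adjusted p = 0.0202) for Mmp14, and without WAT_5C replicate 1 it was 1.54 and 1.10 (edgeR adjusted p = 0.000122 and 0.000311). Both genes fell in cold brown fat (-0.76 and -0.58), and their changes in white fat without that library, 0.79 and 0.53, did not pass where white fat was fitted apart but passed in one fit of all libraries (edgeR adjusted p = 0.00668 and 0.0185). Mmp11 and Mmp12 had differences of 1.78 and 2.59 (edgeR adjusted p = 0.00958 and 0.0119). With a replicate block the Mmp12 difference was 2.33 and did not pass (adjusted p = 0.0729). Mmp12 stood at 1.54 to 2.01 CPM in WAT_5C without replicate 1 and 1.11 to 1.93 CPM in WAT_30C.

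Mmp19 and Mmp15 had a more positive cold effect in brown than in white fat by this test without WAT_5C replicate 1: the difference was -0.68 (SE 0.17, edgeR adjusted p = 0.00638) for Mmp19 and -0.41 (SE 0.12, edgeR adjusted p = 0.0163) for Mmp15. With library totals the Mmp15 difference was -0.16 (adjusted p = 0.427) and that of Mmp19 -0.44 (adjusted p = 0.0339). With replicate 1 and TMM scaling it was -0.36 for Mmp19 and -0.57 for Mmp15 (edgeR adjusted p = 0.387 and 0.126). Loxl1 had a difference of -1.65 (SE 0.22, edgeR adjusted p = 0.000117), with 68.2, 60.7, 78.2 and 72.1 CPM in WAT_5C and 53.3, 60.9, 48.3 and 64.7 CPM in WAT_30C. The white groups overlap. Adamtsl5 had a difference of -1.84 (SE 0.27, edgeR adjusted p = 0.000274), and white fat stood at 9.82 to 14.6 CPM in WAT_5C and 8.24 to 13.4 CPM in WAT_30C.

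The largest difference among the 49 was that of Adamtsl3, at 3.53 (SE 0.34, edgeR adjusted p = 1.03e-05). It was 3.36 without WAT_5C replicate 1. In white fat Adamtsl3 ran at 3.34, 3.08, 2.18 and 1.99 CPM in WAT_5C and 2.15, 4.14, 1.72 and 2.94 CPM in WAT_30C. 8 Adamts proteases had a more positive change in white fat, among them Adamts1 (1.80, and 1.11 without WAT_5C replicate 1), Adamts2 (1.94, and 1.28 without BAT_30C replicate 1) and Adamts15 (1.34). For Adamts7 and Adamtsl1 (0.79 and 1.02, edgeR adjusted p = 0.0368 and 0.0304) leaving out any of several single libraries ended the call (adjusted p up to 0.08).

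**Figure D5:**
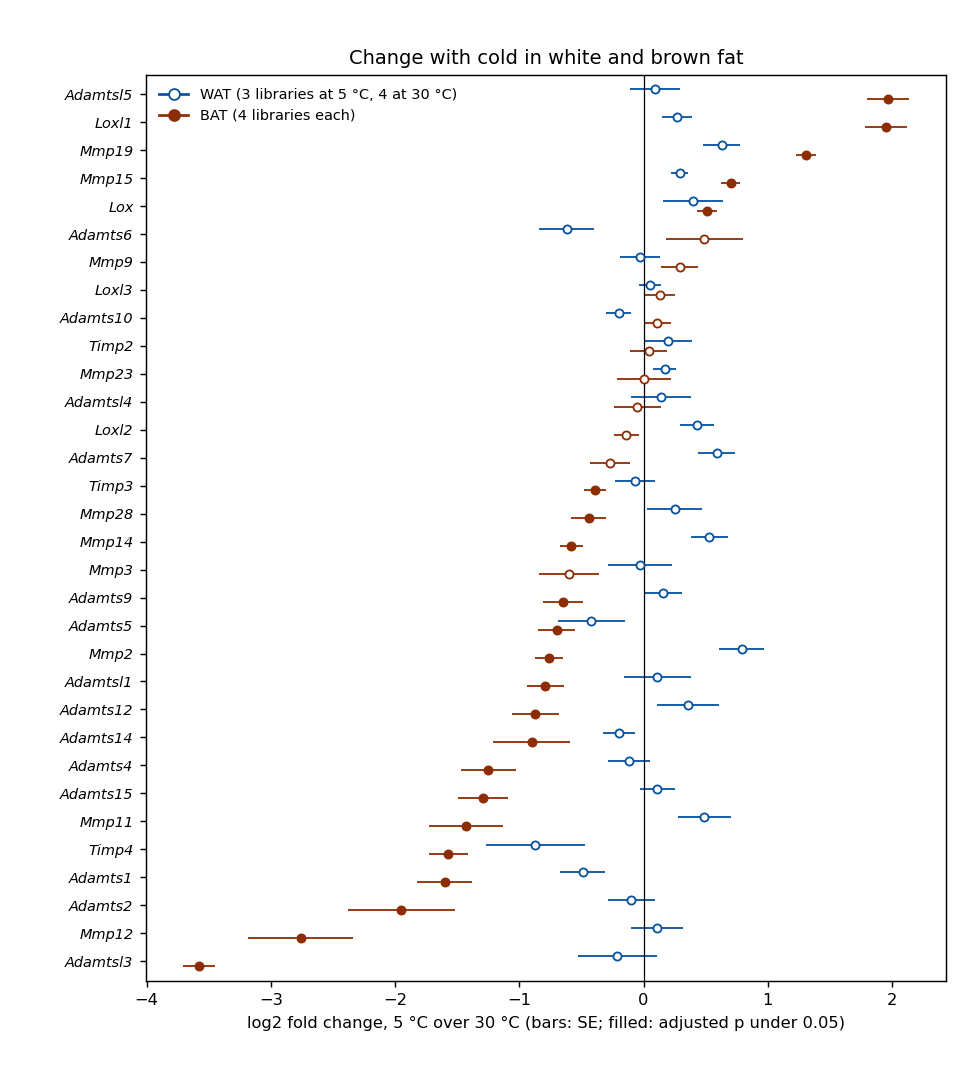
Change with cold in white fat (blue, without WAT_5C replicate 1) and brown fat (brown) for the 32 members with at least 5 CPM in a group, as log2 fold change of 5 °C over 30 °C with SE bars, filled where the adjusted p is under 0.05. Adamtsl3 sits at -3.58 in brown fat and Loxl1 at 1.95, while no point of white fat is filled.

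The depots differed in most members at each temperature. At 30 °C 11 of 49 members were higher in BAT than in WAT (22.4%, against 34.5% of all genes) and 31 lower (63.3%, against 35.3%). At 5 °C 6 were higher (12.2%, against 31.8%) and 30 lower (61.2%, against 40.5%), and without WAT_5C replicate 1 10 were higher and 32 lower (34.0% and 42.2% of all genes). These counts rest on the scaling between tissues: with library totals the median of all genes moved by -0.85 at 30 °C and -0.93 at 5 °C, and 3 members at 30 °C and 0 at 5 °C were higher in BAT. That shift lowers genes in general, and the share of all genes called with library totals is not given here.

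Timp2 showed the gap plainly, with 75.5, 96.7, 57.0 and 72.2 CPM in BAT_30C and 285, 441, 276 and 405 CPM in WAT_30C (log2 fold change -2.22, SE 0.20, edgeR adjusted p = 1.99e-07). Mmp3 had 6.71, 6.32, 6.50 and 5.13 CPM in BAT_30C and 32.8, 49.5, 41.6 and 75.4 CPM in WAT_30C (log2 fold change -3.01, SE 0.27, edgeR adjusted p = 2.32e-07). Both were lower in every brown library than in any white one. Mmp14 and Mmp2 were lower in BAT at 30 °C by 1.71 and 1.45 on the log2 scale, and at 5 °C by 2.67 and 2.87 (edgeR adjusted p = 2.01e-06, 1.24e-05, 3.89e-08 and 2.91e-08). Fibroblast and progenitor markers summed to 439 to 607 CPM in BAT_5C and 1408 to 2326 CPM in WAT_5C, and to 607 to 700.1 CPM in BAT_30C, against 1402 to 1985 CPM in WAT_30C. All 9 of these markers, all 9 macrophage markers, all 7 T and NK cell markers and all 9 tested mammary epithelial markers were lower in BAT at both temperatures, and 7 of 8 endothelial markers were higher. Macrophage markers summed to 246 to 343 CPM in BAT_5C and 920.0 to 1976 CPM in WAT_5C. The part of these cells in the members' differences was not tested.

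Adamtsl3 was the member most raised in brown fat at 30 °C, with the CPM values given above (log2 fold change 4.15, SE 0.26, edgeR adjusted p = 1.29e-08). At 5 °C its log2 fold change between BAT and WAT was 0.61 (edgeR adjusted p = 0.0318), and it turned to -0.31 with library totals. Timp4 was higher in BAT_30C than in WAT_30C (log2 fold change 2.22, SE 0.75, edgeR adjusted p = 0.0154), Adamts9 by 1.60, Mmp28 by 1.49 and Adamts1 by 1.47 (log2). With library totals Timp4 and Adamts1 did not pass (1.38 and 0.61, edgeR adjusted p = 0.0599 and 0.0614), while Adamts9 and Mmp28 did (0.75 and 0.63). At 5 °C Timp4 depended on WAT_5C replicate 1: the log2 fold change of BAT_5C over WAT_5C was -0.55 with it and 1.47 without it (edgeR adjusted p = 0.507 and 0.000907). Without it and with library totals it was 0.43 (adjusted p = 0.202). Mmp17, a lipid-anchored metalloproteinase under 5.1 CPM in all libraries, was higher in BAT at both temperatures, by 1.39 at 5 °C and 1.24 at 30 °C (edgeR adjusted p = 8.19e-05 and 0.000234). With library totals neither difference passed, at 0.48 at 5 °C and 0.39 at 30 °C (edgeR adjusted p = 0.0582 and 0.123).

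Several members of low level were markedly lower in brown fat. Adamts6, a fibrillin-linked protease, had 0.572, 0.370, 0.648 and 0.478 CPM in BAT_30C and 8.82, 6.995, 7.34 and 4.83 CPM in WAT_30C (log2 fold change -3.76, SE 0.36, edgeR adjusted p = 3.66e-07). Adamts8 had 0.0869 to 0.203 CPM in BAT_30C, against 2.34 to 3.95 CPM in WAT_30C. Mmp25 had 0.648 to 1.25 CPM in BAT_30C, against 3.22 to 5.09 CPM in WAT_30C. Adamts14, Loxl1 and Loxl4 were lower in BAT_30C by 2.01, 1.92 and 1.91 on the log2 scale (edgeR adjusted p = 4.42e-06, 9.09e-08 and 4.65e-06). Loxl1 was not called between the depots at 5 °C (log2 fold change -0.26, edgeR adjusted p = 0.129), with 53.8 to 62.7 CPM in BAT_5C and 60.7 to 78.2 CPM in WAT_5C.

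Adamts13, Adamts18, Adamts19 and Mmp16 were also called lower in BAT at both temperatures, and leaving out any single library kept these calls. At 30 °C they averaged 0.118, 0.142, 0.0432 and 0.0700 CPM in BAT, against 0.923, 1.78, 1.26 and 0.260 CPM in WAT. 7 further members were too low to describe. Mmp8 had 30 counts over all 16 libraries, Mmp21 and Mmp24 had 20 each, Mmp10 had 7 and Mmp20, the enamel protease, had 3. With Mmp1a and Mmp1b at 0, these 7 were the members left out of all tests in white fat.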

How the data were processed

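Poly(A) RNA libraries from brown and white fat of mice at 5 °C or 30 °C were analysed, 4 per group, with 54264023 to 71289020 counts each. The authors deposited 1 table of raw read counts per Ensembl gene. Trim Galore and TopHat appear in the submitters' processing notes. Not given in the sources used here: versions, counting tool, strand setting, build and annotation. Without a known strand setting, reads of a gene and its antisense partner cannot be told apart. 45143 of 46078 identifiers were matched to symbols, and the rest held 0.0403% to 0.117% of counts.

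Groups came from titles and housing labels. The main test was edgeR 4.0.16 (R 4.3.3), its quasi-likelihood F-test with TMM scaling, a minimum count of 10 (total 15) and Benjamini-Hochberg adjustment over all genes at 0.05. Brown and white fat were fitted apart. Differences between depots, and between their cold effects, used all 16 libraries together, or 15 without WAT_5C replicate 1. The SE is the log2 fold change divided by the root of F. CPM use TMM-adjusted library sizes. Lengths are from GENCODE M21, which may not be the authors' annotation. The tests were checked on simulated counts. Every called member could be named, and those of at least 5 CPM in a group were described by level. The members and lists were chosen with earlier results of these data known. Alternatives were RLE factors, library totals, no filter, DESeq2 1.42.0, limma 3.58.1 (voom), a replicate block, 1 fit of all libraries, matching-label brown libraries and each library left out. Floors and spread cover counting error and these libraries only.

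Residual correlations of library pairs with equal replicate numbers in different groups ran from -0.531 to 0.275. For BAT_5C with WAT_5C they were 0.275, 0.00701, 0.0579 and 0.0524, and for BAT_30C with WAT_30C -0.219, 0.064, -0.303 and -0.0782. Pairs with unequal numbers were not compared, so these values cannot tell whether equal numbers share a mouse. No libraries were near-duplicates (lowest chi-square per degree of freedom 21.4).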

Additional observations from a re-analysis of the deposited data

Results flagged for a closer look

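7 of 128 member-by-group sets of 4 libraries held a library far from the other 3, where chance gives about 1 in 20, and 4 of the 7 were in WAT_5C replicate 1. In that library Timp4 had 100.4 CPM (6.41 to 9.33 in the other WAT_5C libraries), Lox 80.4 CPM (27.0 to 33.3), Adamts1 62.4 CPM (16.6 to 22.3) and Mmp15 26.4 CPM (53.2 to 56.5). Elsewhere, Adamts12 had 26.8 CPM in WAT_30C replicate 2 (14.4 to 15.6 in the others), Mmp14 had 14.97 CPM in BAT_5C replicate 4 (19.3 to 20.1) and Mmp9 had 9.16 CPM in BAT_30C replicate 1 (6.58 to 6.74).

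The cold effect differed between white and brown fat, by the interaction test in edgeR over all 16 libraries, in 16 members of at least 5 CPM. In the same test 12.5% of all 19481 genes were called up and 8.34% down. The calls of Adamts7, Adamtsl1 and Mmp12 were lost in some other settings, as given above. The difference of log2 fold changes, white minus brown, was 3.53 for Adamtsl3, 2.59 for Mmp12, 1.94 for Adamts2, 1.80 for Adamts1, 1.78 for Mmp11, 1.42 for Mmp2, 1.41 for Adamts12 and 1.34 for Adamts15. It was 1.24 for Adamts4, 1.17 for Adamts9, 1.02 for Adamtsl1, 0.96 for Mmp14, 0.79 for Adamts7 and 0.64 for Loxl2. It was negative for Loxl1 (-1.65) and Adamtsl5 (-1.84).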

How the results depend on the processing

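With library totals, 5 members rose in cold BAT, 4 had a lower cold effect in WAT than in BAT (without WAT_5C replicate 1), 3 were higher in BAT_30C than in WAT_30C, and 0 were higher in BAT_5C than in WAT_5C, with or without WAT_5C replicate 1. The same scaling turned these log2 fold changes: in WAT, Adamts1 (-0.23) and Mmp15 (-0.11); between depots at 30 °C, Mmp19 (-0.39) and Adamts7 (-0.19); at 5 °C, Adamtsl2 (-0.24), Adamtsl3 (-0.31), Mmp19 (-0.06) and Mmp15 (-0.49); and at 5 °C without WAT_5C replicate 1, Mmp28 (-0.28), Adamtsl2 (-0.39), Timp3 (-0.48), Adamtsl3 (-0.32), Mmp15 (-0.75) and Adamts9 (-0.28). In the 4 brown libraries with matching labels 5 members rose. In WAT, DESeq2 called 2 up, limma-voom 3 up and 2 down and 1 fit of all libraries 3 up. Without WAT_5C replicate 1 DESeq2 called 8 up and 2 down, limma-voom 6 up and 1 down and 1 fit 6 up. Limma-voom called 8 members down for the cold effect in WAT minus BAT and 10 higher in BAT_5C than in WAT_5C. It turned Adamts1 (-0.35) and Timp4 (-0.48) in WAT, and leaving out WAT_5C replicate 1 gave -0.49 and -0.87 (highest values with 1 library left out 0.37 and 1.60). Shares over all genes are given above only for the main fits and, in WAT, for DESeq2 and limma-voom. The counts of the other settings, those of the replicate block and of the left-out libraries below included, stand without them. Apart from these settings' own construction, the cause was not tested.

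With the replicate number as a block, 7 members rose and 19 fell in BAT, and in WAT Adamts1 was -0.06 and Timp4 -0.11. The block ended the calls of Mmp28 in BAT (adjusted p = 0.0613) and, for the cold effect in WAT minus BAT, of Mmp12 (2.33, 0.0729) and Adamtsl1 (1.08, 0.0627), and without WAT_5C replicate 1 of Adamts2 (1.67, 0.0604), Loxl2 (0.54, 0.057), Adamts6 (-0.94, 0.0813) and Adamtsl1 (0.91, 0.1). No label says whether equal replicate numbers stand for a shared mouse. DESeq2 gave no adjusted p for Timp4 in WAT or between depots at 30 °C.

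Leaving out 1 library at a time gave 7 to 8 members up and 17 to 19 down in BAT. In WAT it gave 0 to 0 up and 0 to 0 down, and 0 to 1 up and 0 to 0 down without WAT_5C replicate 1. For the cold effect in WAT minus BAT it gave 13 to 16 up and 4 to 8 down, and 14 to 17 up and 6 to 8 down without that library. Between depots it gave 10 to 11 up and 30 to 32 down at 30 °C, 4 to 10 up and 30 to 32 down at 5 °C, and 8 to 10 up and 31 to 32 down at 5 °C without WAT_5C replicate 1. Without that library 8 members were called down for the cold effect and 10 up between depots at 5 °C.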
